A study of Mus musculus with 6 samples.

Results

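The 10 endothelial marker genes Tek, Tie1, Pecam1, Cdh5, Kdr, Flt1, Cldn5, Emcn, Egfl7 and Esam were followed in dorsal root ganglia of dt27J and wild-type mice. They were taken as a named list, and every non-control array probe whose transcript accession belongs to one of them was used, which gave 12 of 41174 probes, for 10 of the 17178 genes the array could be matched to. Cdh5 and Flt1 have 2 probes each and the other genes 1 each. On each of the 6 arrays all 12 exceeded background clearly, and all 12 were among the 26248 probes tested.

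Ganglia were taken at postnatal day 4 from C57BL/6 mice, 3 WT littermate controls and 3 dt27J animals out of 2 litters, and 300 ng of total RNA per sample was labelled with Cy3 for a single-colour Agilent array. In dt27J mice the mutated gene is Dst, which encodes the cytoskeletal linker dystonin and whose loss causes a sensory neuropathy, and the series places this age before the phenotype. The allele is carried by the whole animal, so vessel cells carry it too. The labels give a date for each sample: WT 1, WT 2, dt27J 1 and dt27J 2 share the first date, and WT 3 and dt27J 3 share the second.

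Endothelial cells line every blood vessel. They are held together by adherens junctions built on VE-cadherin and by tight junctions built on claudins, and they live on signals from VEGF and angiopoietin ligands through receptor tyrosine kinases that few other cells carry. Ganglia of the dorsal roots have a dense capillary bed that runs between the cell bodies of the sensory neurons.

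A level below is log2 of the processed signal minus the 75th percentile of the same array, so a level of 0 is that percentile. The share of probes clearly over background was 63.1% to 71.4% per array, and the 75th percentile lay at a signal of 369.5 to 580 units. Dst, which checks the genotype labels, stood on its brightest probe at 1.15, 1.44 and 1.1 in WT 1 to 3 and at -1.63, -1.77 and -0.96 in dt27J 1 to 3. Differences are log2 differences, dt27J minus WT, with the standard error (SE) and the Benjamini-Hochberg adjusted p of a limma fit with the date as a block, over all tested probes, at a threshold of 0.05. In bulk tissue, more cells of a type and more RNA per cell cannot be told apart. With 3 arrays a genotype, precision is limited.

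The 10 endothelial marker genes had positive genotype differences on every probe, and of them Tek alone passed the test. All 12 probes had a positive difference, where 46.4% of all tested probes did. The median over the 10 genes, taking for each the probe with the highest mean, was 0.73, beside -0.050 over all tested probes. Of the 10 genes, 1 was called higher and 0 lower, beside 1.31% of all tested probes called higher, 1.88% called lower and 3.19% in all. At an adjusted p under 0.10, 5 of the 10 genes were higher (limma), beside 6.41%. At an unadjusted p under 0.05, 7 of the 10 genes were higher (limma), beside 12.0% of tested probes.

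**Figure D1:**
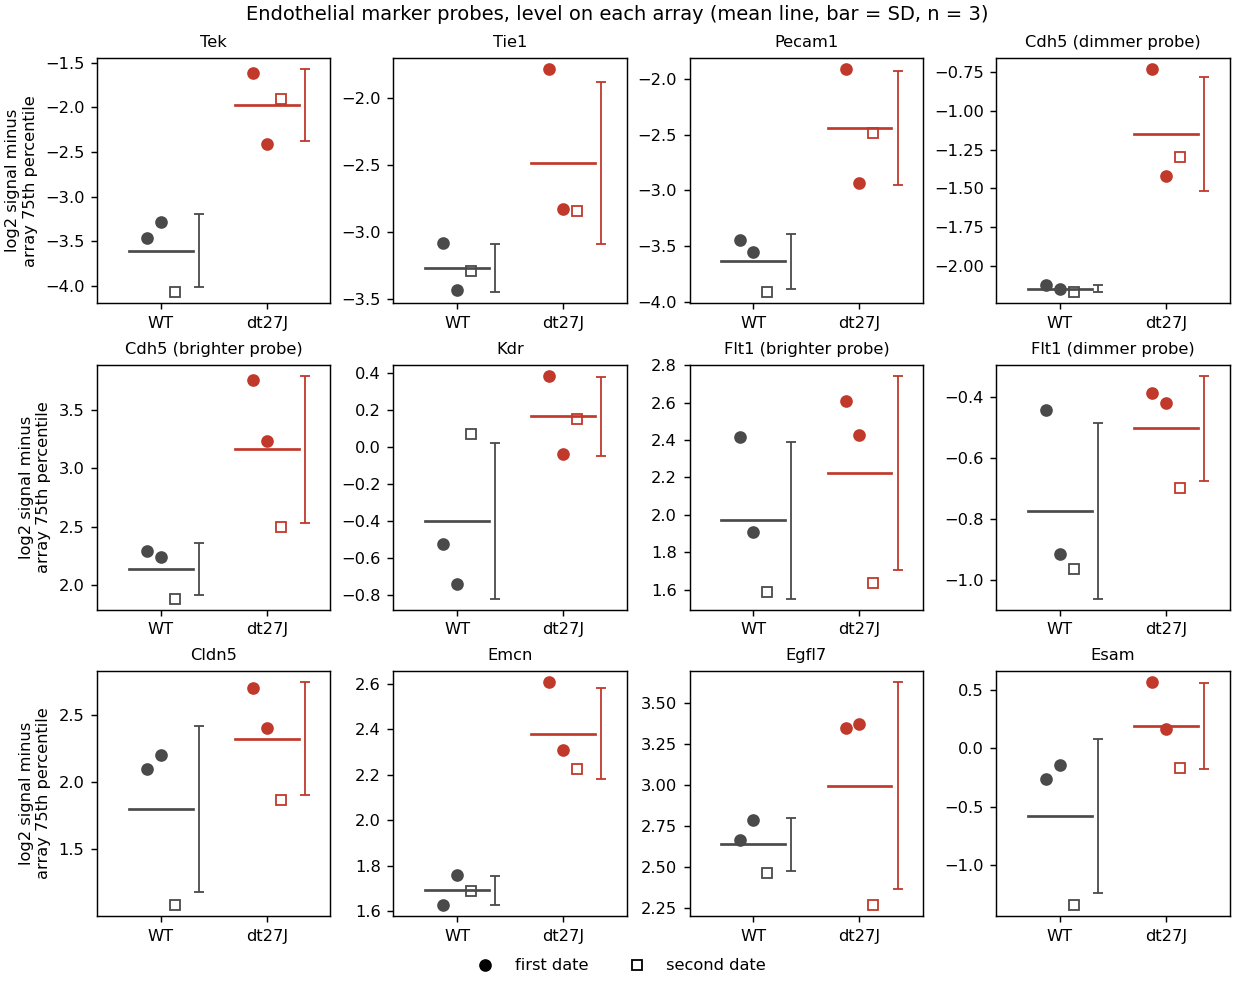
Level of each of the 12 endothelial probes on each array, as log2 signal minus the 75th percentile of the array (vertical axis, own scale per panel), for WT (grey) and dt27J (red); lines are means and bars SDs over 3 arrays, filled circles are the first date and open squares the second. The genotypes do not overlap for Tek, Tie1, Pecam1, both Cdh5 probes and Emcn, and dt27J 1 is the highest array on 11 of the 12 probes.

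The angiopoietin receptor gene showed the largest difference of the group. Tek encodes Tie2, the receptor kinase through which angiopoietins set vessel stability. It stood at -3.46, -3.29 and -4.07 in WT 1 to 3 and at -1.61, -2.41 and -1.90 in dt27J 1 to 3. Every dt27J array lay above every WT array. Tek rose by 1.63 (SE 0.29, n = 3 arrays per genotype), a 3.10-fold increase with a 95% interval of 1.91 to 5.04 (adjusted p = 0.0472, limma). The difference stood at the 99.4th percentile of all tested probes.

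The Tek call lay close to the threshold and rests on a dim probe. Its processed signal was 44.0, 50 and 30.3 units in WT 1 to 3 and 174, 69.7 and 155 in dt27J 1 to 3. After normexp background correction with an offset of 50, which is of the size of these signals, the difference was 0.51 (adjusted p = 0.179, limma), and 0.85 (adjusted p = 0.0321) once a few very high local backgrounds had been replaced. The adjusted p was 0.0610 without the date block and 0.0992 without a filter on dim probes. It was 0.248 without WT 1, 0.160 without WT 2 and 0.188 without dt27J 1, with differences of 1.66, 1.76 and 1.48.

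Tie1, an orphan receptor kinase that pairs with Tie2, had a positive difference that did not pass. Its levels were -3.08, -3.44 and -3.29 in WT and -1.79, -2.83 and -2.84 in dt27J. The genotypes did not overlap, but dt27J 2 and dt27J 3 lay only a little above WT 1. The difference was 0.78 (SE 0.32, adjusted p = 0.169, limma), 1.72-fold with an interval of 1.02 to 2.90, and it was 0.44 without dt27J 1.

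The VEGF receptor genes differed less. Kdr encodes VEGFR2, the main signalling receptor for VEGF-A, and its probe is spotted 10 times on each array, with an SD between spots of 0.033 to 0.058. Kdr stood at -0.52, -0.74 and 0.067 in WT and at 0.38, -0.041 and 0.15 in dt27J. WT 3 lay above dt27J 2, so the genotypes overlapped. The difference was 0.56 (SE 0.25, adjusted p = 0.194, limma), and its 95% interval ran from -0.023 to 1.15.

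Flt1 encodes VEGFR1, which binds VEGF-A tightly and is known as a decoy receptor. On its brighter probe it stood at 2.42, 1.91 and 1.59 in WT and at 2.61, 2.43 and 1.63 in dt27J. Within each genotype the second-date array was the lowest, and the genotypes overlapped. The difference was 0.25 (SE 0.22, interval -0.28 to 0.79, adjusted p = 0.490, limma). The second probe stood at 0.27 (SE 0.21, adjusted p = 0.430), close to the first, and a difference over 1.73-fold lay outside the interval of the brighter probe.

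The promoters of both receptor pairs are shown because these genes bracket the range of differences, from Tek to Flt1. Each line gives the 250 bases before the start site on the strand of the gene, from the RefSeq promoter table of build GRCm38.p6: Tek at chr4:94739039-94739288 (plus strand), Tie1 at chr4:118489850-118490099 (minus strand), Kdr at chr5:75978456-75978705 (minus strand) and Flt1 at chr5:147726012-147726261 (minus strand). Capitals mark the letters AGGAAG on either strand, which hold the core bound by ETS factors, the transcription factor family of the endothelial lineage.
Tek: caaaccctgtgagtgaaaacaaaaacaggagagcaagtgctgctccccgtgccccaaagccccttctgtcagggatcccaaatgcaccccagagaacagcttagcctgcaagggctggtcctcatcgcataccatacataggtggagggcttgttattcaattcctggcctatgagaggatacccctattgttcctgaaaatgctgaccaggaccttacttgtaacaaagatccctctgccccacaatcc
Tie1: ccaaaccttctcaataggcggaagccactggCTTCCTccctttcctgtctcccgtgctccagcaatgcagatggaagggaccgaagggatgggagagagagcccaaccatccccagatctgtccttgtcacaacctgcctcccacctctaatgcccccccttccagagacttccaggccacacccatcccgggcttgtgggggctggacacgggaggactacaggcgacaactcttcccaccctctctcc
Kdr: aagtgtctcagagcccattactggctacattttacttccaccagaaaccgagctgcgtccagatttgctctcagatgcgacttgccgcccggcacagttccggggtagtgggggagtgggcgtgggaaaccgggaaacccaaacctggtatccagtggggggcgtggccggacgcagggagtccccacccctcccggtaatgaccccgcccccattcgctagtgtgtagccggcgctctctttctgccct
Flt1: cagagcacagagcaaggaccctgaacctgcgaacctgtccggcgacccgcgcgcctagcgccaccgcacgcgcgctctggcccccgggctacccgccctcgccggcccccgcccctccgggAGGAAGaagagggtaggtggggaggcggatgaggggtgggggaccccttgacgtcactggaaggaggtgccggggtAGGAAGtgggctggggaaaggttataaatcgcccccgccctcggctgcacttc
These letters occur 2 times in the Flt1 window, 1 time in that of Tie1 and 0 times in those of Tek and Kdr, and 29.5% of the 32851 promoters of the table hold them within the same length. Of the 9 windows of member genes, 5 hold the motif. Of 7 member genes with a promoter in the table, 4 hold it in at least 1 window: Tie1, Flt1, Emcn and Egfl7. The letters CACCC, a core bound by KLF factors, occur in 6 of the 9 member windows (6 of the 7 genes) and in 52.0% of all promoters. AACAAT, a SOX core, occurs in the windows of Tek and Emcn and in 9.4% of all promoters. The core of GATA factors, spelled AGATAA, occurs in 0 of the 9 member windows and in 3281 promoters of the table. TATAAA occurs in Flt1 alone among these windows and in 12.4% of all. Both strands were searched, no match shown here overlaps another, and a match is a description of letters only.

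Among the junction genes, Cdh5 and Pecam1 had the largest differences. Cdh5 encodes VE-cadherin, the adhesion molecule of endothelial adherens junctions. Its brighter probe stood at 2.29, 2.24 and 1.89 in WT and at 3.75, 3.23 and 2.50 in dt27J. Its dimmer probe stood at -2.13, -2.15 and -2.17 in WT and at -0.73, -1.42 and -1.30 in dt27J. Both probes separated the genotypes, with dt27J 1 highest on each. The differences were 1.02 (SE 0.24, adjusted p = 0.0629) and 1.0 (SE 0.24, adjusted p = 0.0637, limma), 2.03-fold and 2.0-fold, so the probes gave nearly the same value and both missed the threshold.

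Whether Cdh5 passed depended on the setting: the brighter probe passed under 5 and the dimmer under 3 of 15 distinct alternatives. It did not pass without the date block (0.135 and 0.0814), with the replicate block (0.127 and 0.124) or after quantile normalization (0.0561 and 0.0606), and the highest adjusted p values were 0.263 and 0.259 (limma), without WT 1. With the authors' values the adjusted p was 0.0456 and 0.0470 on the brighter and the dimmer probe, and with the arrays of the first date alone it was 0.0200 and 0.0378 (limma). After normexp the brighter probe passed (1.06, adjusted p = 0.0353), and the dimmer one stood at 0.56 (adjusted p = 0.168).

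Pecam1 encodes CD31, an adhesion molecule of endothelial contacts that leukocytes and platelets carry as well. Its probe is also spotted 10 times, with an SD between spots of 0.075 to 0.11. It stood at -3.45, -3.55 and -3.91 in WT and at -1.91, -2.93 and -2.48 in dt27J. Every dt27J array lay above every WT array, with dt27J 1 highest. The difference was 1.19 (SE 0.30, adjusted p = 0.0679, limma), 2.29-fold with an interval of 1.40 to 3.74. This probe is dim, with signals of 33.9 to 44.6 units in WT, and after normexp the difference was 0.40.

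Esam and Cldn5 encode tight junction proteins of endothelium, Cldn5 being the main claudin of neural vessels. Esam stood at -0.26, -0.14 and -1.34 in WT and at 0.57, 0.17 and -0.17 in dt27J. Cldn5 stood at 2.10, 2.20 and 1.09 in WT and at 2.70, 2.40 and 1.87 in dt27J. dt27J 3 lay below WT 2 on Esam and below WT 1 and WT 2 on Cldn5, so the genotypes overlapped, while within each date dt27J was higher. The difference was 0.77 for Esam (SE 0.23, adjusted p = 0.0929) and 0.53 for Cldn5 (SE 0.21, adjusted p = 0.159, limma). The second date stood below the first by 0.84 on Esam and by 0.87 on Cldn5, the largest date differences of the 12 probes. After normexp the Esam difference was 0.38.

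Emcn, the sialomucin endomucin of capillary and venous endothelium, had tightly grouped values. It stood at 1.63, 1.76 and 1.69 in WT (SD 0.064) and at 2.61, 2.31 and 2.22 in dt27J (SD 0.20). The genotypes did not overlap. The difference was 0.69 (SE 0.20, adjusted p = 0.0870, limma), 1.61-fold with an interval of 1.16 to 2.24.

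Egfl7, a matrix protein that endothelial cells secrete, went opposite ways on the 2 dates. It stood at 2.66, 2.78 and 2.46 in WT and at 3.35, 3.37 and 2.27 in dt27J. The dt27J arrays of the first date were the highest of the 6 and that of the second date was the lowest. The difference was 0.36 (SE 0.24, interval -0.20 to 0.92, adjusted p = 0.359, limma).

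**Figure D2:**
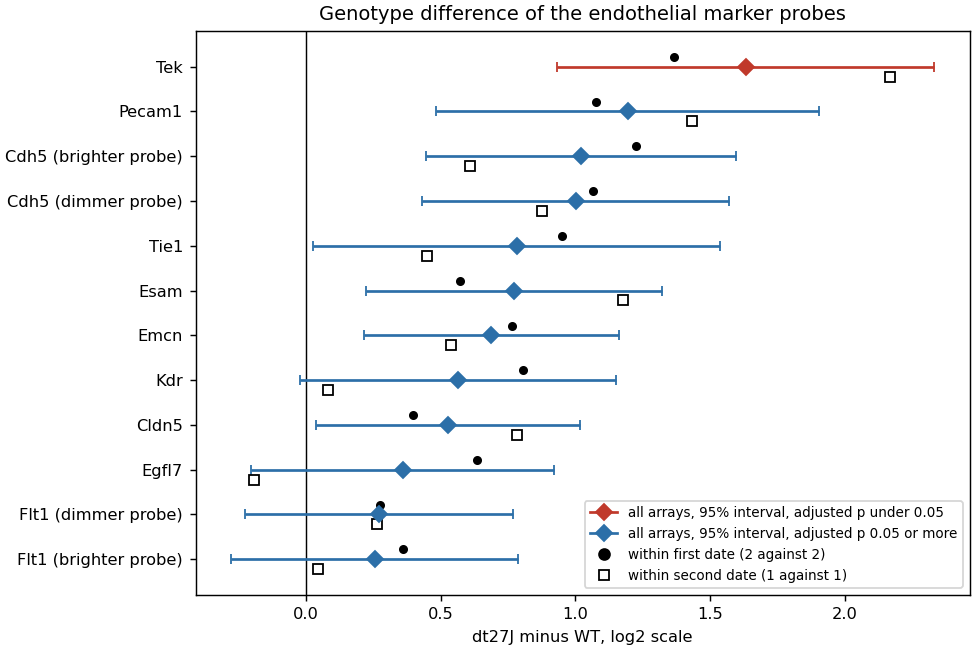
Difference dt27J minus WT on the log2 scale (horizontal axis) for the 12 endothelial probes, with its 95% interval (diamond and bar; red, adjusted p under 0.05), and the difference within the first date (circle) and within the second (square). Tek at 1.63 is the single probe in red, Flt1 is lowest at 0.25 and 0.27, and Egfl7 at -0.19 is the single negative second-date value.

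Within the first date, with 2 arrays per genotype, both dt27J arrays lay above both WT arrays on all 12 probes, beside 35.0% of all tested probes. The first-date differences ran from 0.27 for the dimmer Flt1 probe to 1.37 for Tek, with a median of 0.78 over the 10 genes. In the second date, which has a lone array of each genotype (1 against 1), dt27J lay above WT on 11 of the 12 probes, beside 42.7% of all tested probes. The second-date differences ran from -0.19 for Egfl7 to 2.17 for Tek, and the median over the genes was 0.57. On 11 of 12 probes dt27J was higher in both dates without overlap in the first, beside 18.1% of all tested probes. Without regard to date, 6 of the 12 probes separated the genotypes completely, beside 12.8%.

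Whether the genotype difference itself differed between dates was tested as an interaction. None of the 12 probes passed after adjustment (0 of 12, limma), beside 0.831% of all tested probes, and 1 of 12 had an unadjusted p under 0.05, beside 27.5%. That probe was Egfl7. Tek, Pecam1, Cldn5 and Esam had larger second-date differences and the other probes smaller ones. The difference of differences had an SE of 0.31 to 0.64, and sizes above 1 SE were not always resolved. Tek at 0.80 (SE 0.51) and Kdr at -0.72 (SE 0.39) had unadjusted p of 0.171 and 0.114 (limma interaction).

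The arrays were not evenly placed within a genotype. Averaged over the 10 genes, each centred on its own mean over the 6 arrays, WT 1 to 3 stood at -0.23, -0.29 and -0.65 and dt27J 1 to 3 at 0.80, 0.31 and 0.061. All 10 genes lay above their own mean on dt27J 1 and on dt27J 2, 6 did on dt27J 3, and 2, 2 and 1 did on WT 1 to 3. WT 3 was the lowest array on 8 of the 12 probes. Without dt27J 1 the median difference over the genes was 0.53, and without dt27J 2 it was 0.85.

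The correlation of each gene over the 6 arrays with the mean of the other 9 was highest for Cdh5 (r = 0.973), Emcn (0.924) and Pecam1 (0.913). It was lowest for Kdr (0.484), Flt1 (0.656) and Egfl7 (0.672). These values describe 6 arrays that share genotype and date, and no test was made. The 8 genes outside the list whose 6 values followed the mean of the 10 most closely were Eapp, Dock6, Reep4, Mal, Kcnj10, Fam102a, Zfp275 and Mrpl18, with r between 0.994 and 0.997. Mal had the largest difference of these at 1.25 (SE 0.26, adjusted p = 0.0526, limma), and none of the 8 passed (0 of 8).

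Of the ligands of these receptors, 8 genes were measured, of which 6 were tested, 0 called higher and 1 called lower, with a median of 0.073. Pgf, the placental growth factor that binds Flt1, stood at -0.67, -0.61 and -0.71 in WT and at -2.29, -1.75 and -1.85 in dt27J. It fell by 1.30 (SE 0.22, adjusted p = 0.0472, limma), with all dt27J arrays under all WT arrays. This call was lost under 8 of 15 distinct alternatives, with adjusted p up to 0.248, and after normexp the difference was -0.77.

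Angpt2, the angiopoietin that modulates Tie2 in remodelling vessels, stood at 0.11, -0.098 and 0.17 in WT and at 1.79, 1.51 and 0.45 in dt27J. The groups did not overlap, yet the difference was carried by the first date (1.64, against 0.28 in the second). Over all arrays it was 1.19 (SE 0.32, adjusted p = 0.0758, limma). Angpt1, the activating ligand of Tie2, was well above background on 1 WT and 2 dt27J arrays and was not tested. Angpt4 was well above background on 0 arrays.

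Vegfa, the main ligand of Kdr, stood at 0.12 on its brightest probe (SE 0.30, interval -0.59 to 0.82, adjusted p = 0.826, limma), with -0.32 in the first date and 0.98 in the second. Its 3 dimmer probes stood at 0.50, -0.51 and -0.12. Vegfb stood at -0.52 (adjusted p = 0.237) on the brighter probe, while its dimmer probe fell by 1.06 (adjusted p = 0.0472). Vegfc, the ligand of lymphatic vessels, stood at 0.74 (adjusted p = 0.173) and Vegfd at 0.032 (adjusted p = 0.927).

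Other receptors and regulators of endothelial signalling passed on none of their brightest probes (0 of 10 tested, of 11 measured; 0 at an unadjusted p under 0.05), with a median of 0.057. Ptprb, the phosphatase that acts on Tie2, stood at 0.75 (adjusted p = 0.226), Eng, a TGF-beta co-receptor, at 0.11 (adjusted p = 0.819), and Nrp1, a co-receptor for VEGF-A, at -0.58 (adjusted p = 0.299, limma). A dimmer probe of Aplnr, the apelin receptor, fell by 1.1 (adjusted p = 0.0476), and its brightest probe stood at -0.39. Flt4, the receptor of lymphatic endothelium, was well above background on 0 arrays. The medians of this list were 0.27 in the first date and -0.40 in the second. Within the same dates Ptprb stood at 1.24 and -0.23, Eng at 0.48 and -0.64, and Nrp1 at -0.31 and -1.12.

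**Figure D3:**
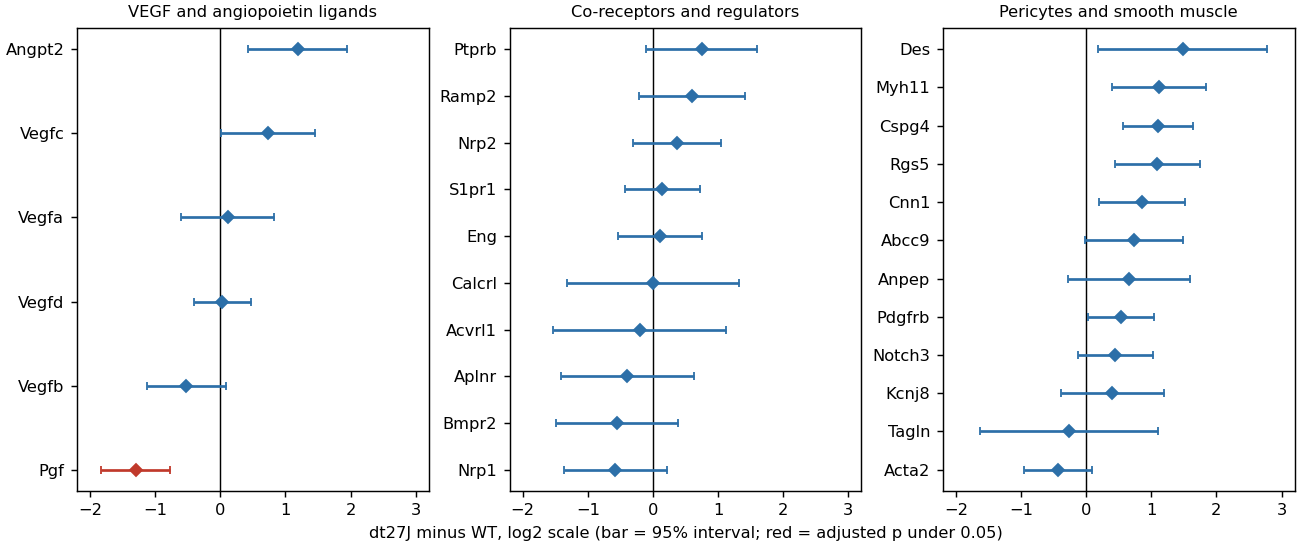
Difference dt27J minus WT on the log2 scale (horizontal axis) with its 95% interval for the tested ligand genes, co-receptor genes and mural-cell genes, 1 probe a gene; red marks an adjusted p under 0.05. Pgf at -1.30 is the single gene in red, Angpt2 stands at 1.19 and Vegfa at 0.12.

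A wider set of 23 endothelial surface and secreted genes, of which 21 were tested, had 18 positive and 3 negative differences and a median of 0.59, with 0 called in either direction and 10 at an unadjusted p under 0.05 (limma). The smallest p values were those of Vwf, the clotting factor stored in endothelial cells (0.96, SE 0.23, adjusted p = 0.0637), Podxl, a sialomucin of the luminal surface (1.67, SE 0.41, adjusted p = 0.0664), and Mmrn2, a matrix protein of vessels (0.95, SE 0.24, adjusted p = 0.0680). A second Podxl probe stood at -0.46 and a second Vwf probe at 0.88. Among its leukocyte adhesion genes, named after their values were seen, Vcam1 stood at -0.26 and Selp at -0.018, Icam1 was not tested, and Sele was well above background on 0 arrays.

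Endothelial transcription factor genes had 10 positive and 1 negative difference among 11 tested of 12 measured, a median of 0.73 and 0 calls (6 at an unadjusted p under 0.05, limma). Sox18 stood at 0.98 (SE 0.21, adjusted p = 0.0556) and Ets1 at 0.87 (SE 0.20, adjusted p = 0.0620), with other Ets1 probes at -0.41 and 0.11. Klf2, a factor induced by blood flow, was the negative one at -3.29 (SE 0.66, adjusted p = 0.0519), and its second probe stood at 0.59, so its probes disagreed. Gata2, named after its values were seen and counted as positive at 1.65, stood at 3.72 in the first date and -2.50 in the second. The median of the list was 0.94 in the first date and 0.00065 in the second.

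Notch and arterial or venous genes had 11 positive and 1 negative difference among 12 tested, with a median of 0.38 and 0 calls (3 at an unadjusted p under 0.05, limma). Hes1, a Notch target, stood at 0.94 (SE 0.22, adjusted p = 0.0620), Gja5, an arterial connexin, at 0.91 (SE 0.25, adjusted p = 0.0786), and Ephb4, a venous receptor, at 0.70 (SE 0.20, adjusted p = 0.0843). A second Gja5 probe stood at -0.34 (adjusted p = 0.381, limma), with -0.15 in the first date and -0.72 in the second, so its probes disagreed. The medians of the list were 0.44 and 0.41 within the 2 dates. Barrier and junction genes had a median of 0.13 over 15 tested, with 9 positive, 6 negative and 0 called (3 at an unadjusted p under 0.05, limma). There F11r, a junctional adhesion molecule, stood at 0.80 (SE 0.21, adjusted p = 0.0746), and Mfsd2a, a lipid transporter of barrier vessels, at -0.62 (SE 0.21, adjusted p = 0.126).

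Mural cells, the pericytes and smooth muscle that wrap the endothelium, had a median of 0.69 over 12 tested genes, with 10 positive, 2 negative and 0 called (6 at an unadjusted p under 0.05, limma). Cspg4, the pericyte proteoglycan NG2, stood at 1.1 (SE 0.23, adjusted p = 0.0530), Rgs5, a pericyte signalling regulator, at 1.09 (SE 0.27, adjusted p = 0.0673), and Pdgfrb, the receptor that recruits pericytes, at 0.53 (SE 0.21, adjusted p = 0.163). Abcc9, a subunit of a potassium channel of pericytes, stood at 0.73 on its brightest probe (adjusted p = 0.191), while a dimmer probe, well above background on 1 WT array, rose by 1.20 (adjusted p = 0.0472). Acta2, the smooth muscle actin, stood at -0.43 on its brightest probe and at 1.09 and 1.12 on the others (adjusted p = 0.257, 0.0883 and 0.148), so its probes disagreed. A second Cspg4 probe stood at 0.57 (adjusted p = 0.428, limma), with 1.21 in the first date and -0.72 in the second. The mural median was 1.17 in the first date and -0.0079 in the second. The endothelial medians of the same dates were 0.78 and 0.57. This contrast between lists was not tested.

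Genes of other cell types differed too, mostly within the first date, and in some lists the arrays of 1 genotype lay far apart. The 17 skeletal muscle genes, all tested, had a summed signal of 32.6, 32.3 and 123 times the 75th percentile in WT 1 to 3. In dt27J 1 to 3 it was 107, 236 and 164. There 5 were called higher: Mb, Ckmt2, Tcap, Myh1 and Tnnt3. Each of these calls was lost under 6 or 7 of 15 distinct alternatives. A second Myh1 probe stood at -0.17 (adjusted p = 0.598, limma) and a second Tnnt3 probe at 1.97 (adjusted p = 0.0472, limma). The median differences of the list were 2.35 in the first date and 0.23 in the second. Of 15 spinal cord genes 14 were measured, with sums of 37.7, 29.7 and 4.47 in WT 1 to 3 and 3.50 to 3.99 in dt27J. WT 3 thus lay close to the dt27J arrays. The medians were -4.09 and 0.048, and Opalin was above background on 0 arrays. The 11 fibroblast and meningeal genes had sums of 308 to 611 and 480 to 963 and medians of 1.37 and -0.17. Of 13 sensory neuron genes, which mark the labelled tissue, 12 were measured, with sums of 806 to 924 in WT and 593 to 766 in dt27J and medians of -1.08 and -0.56. Of 12 Schwann cell and satellite glia genes 11 were measured, with sums of 336 to 522 in WT and 377 to 414 in dt27J and medians of 0.063 and 0.55. Of these, 3 were called higher and 0 lower: Egr2, the transcription factor of myelinating Schwann cells, rose by 2.0 (adjusted p = 0.0442), Ednrb, an endothelin receptor, by 1.32 (adjusted p = 0.0442) and Cdh19, a cadherin of Schwann cell precursors, by 1.85 (adjusted p = 0.0497, limma). The Egr2 and Ednrb calls were each lost under 7 of 15 distinct alternatives, and that of Cdh19, well above background on 1 WT array, under 9 of the 14 that tested it. A second Ednrb probe stood at 0.32 (adjusted p = 0.684, limma), with 1.06 in the first date and -1.16 in the second. The part of these tissues in the endothelial differences was not tested.

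**Figure D4:**
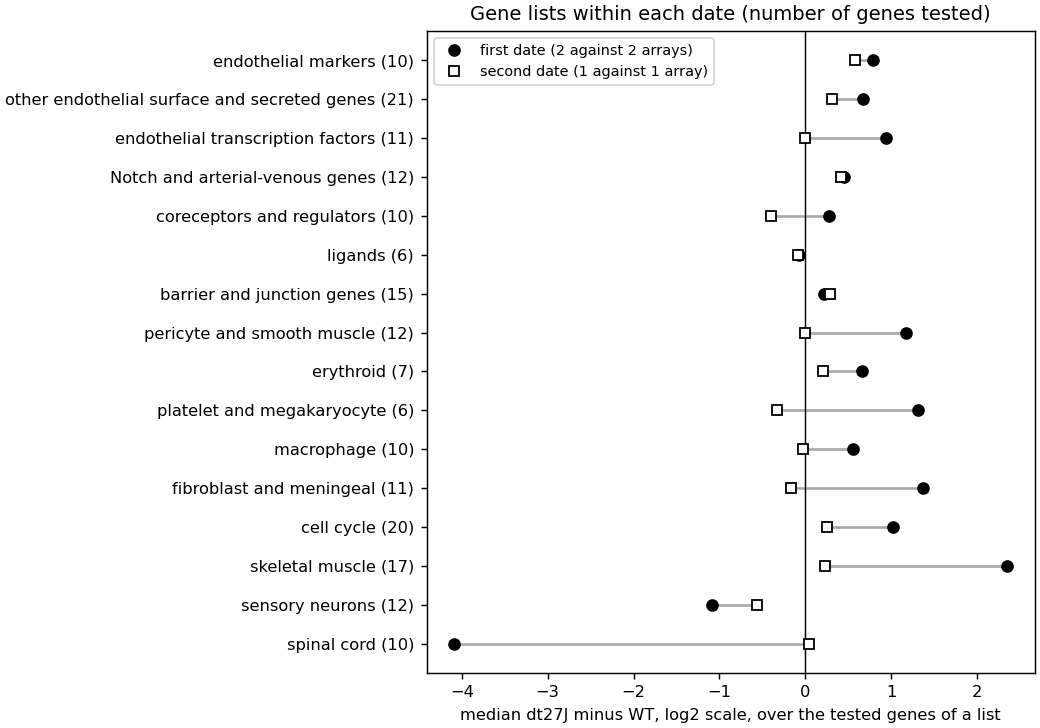
Median difference dt27J minus WT on the log2 scale (horizontal axis) over the tested genes of each list, within the first date (circle, 2 against 2 arrays) and within the second (square, 1 against 1). The endothelial markers stand at 0.78 and 0.57, the mural list at 1.17 and -0.0079, and the spinal cord list at -4.09 and 0.048.

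Blood lineages share Pecam1, Tek and Esam in part. The 10 macrophage genes measured of 11 had sums of 8.89 to 9.09 in WT and 9.57 to 17.1 in dt27J, with 1 called higher, Aif1 (1.01, SE 0.19, adjusted p = 0.0483, limma), a call lost under 8 of 15 distinct alternatives, and medians of 0.56 and -0.025 within the dates. The 7 platelet and megakaryocyte genes had sums of 4.30 to 4.91 in WT and 4.05 to 9.07 in dt27J and medians of 1.31 and -0.33, and Gp1bb fell by 1.37 (SE 0.23, adjusted p = 0.0472), a call lost under 8 of 15 distinct alternatives. The erythroid genes, 8 measured of 12, had sums of 259 to 361 in WT and 257 to 572 in dt27J and medians of 0.67 and 0.21. The summed signal of the 10 endothelial genes was 19.2 to 25.8 in WT and 24.5 to 46.0 in dt27J. The part of blood cells in the Pecam1, Tek and Esam values was not tested.

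Among genes of dividing cells, 20 of 20 tested cell cycle genes had a positive difference, with a median of 0.75 and 1 called, Top2a (1.17, SE 0.19, adjusted p = 0.0455, limma). That call was lost under 8 of 15 distinct alternatives, and a second Top2a probe stood at 0.079 (adjusted p = 0.910). Mki67, a marker of dividing cells, stood at 0.63 (adjusted p = 0.0923) on its brightest probe, while its other probe rose by 1.03 (adjusted p = 0.0497). Their medians were 1.03 and 0.25 within the dates. Which cells divided cannot be told from bulk tissue.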

How the data were processed

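Gene expression was measured on 6 single-colour Agilent arrays, 3 per genotype. The deposited processed signal is an intensity made with Agilent Feature Extraction 10.5.1.1, with background subtraction within the array, per the submitters' processing notes and per the file headers. The series table deposited by the authors is in log2, centred on each probe. For the steps behind it, the sources used here give none. The probe flags used (well above background, outlier) are those of the deposited scanner files.

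The 75th percentile of an array's log2 processed signals was subtracted from them, and the spots of a probe were averaged without outlier spots. Tested probes exceeded background by the scanner flag on every array of WT, of dt27J or of both. Probes were named by transcript accession through the RefSeq gene table of GRCm38.p6, which named 19381 of the 26248 tested probes, while the array annotation is of build mm9. Tests used limma 3.58.1 (lmFit, eBayes) in R 4.3.3 with genotype and date, adjusted over all tested probes, with 3 residual degrees of freedom and 3.74 from the prior. A script was tested on simulated data. The members, gene lists, motifs and alternatives were chosen with earlier results of these data known. Every member probe is named; of each list the genes past the threshold or else those of smallest p, and all ligands; probes other than the brightest were named after their values were seen. Alternatives were other scalings, background corrections, filters, blocks, array weights, the authors' values and leaving out arrays.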

Additional observations from a re-analysis of the deposited data

Results flagged for a closer look

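Egfl7 had a genotype difference that ran opposite ways on the 2 dates: 0.64 in the first, where both dt27J arrays lay above both WT arrays, and -0.19 in the second, with 1 array per genotype. The second date minus the first was -0.83 (SE 0.31, unadjusted p = 0.0376, adjusted p = 0.161, limma interaction), so the difference between dates did not pass after adjustment over all tested probes.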

How the results depend on the processing

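All 12 endothelial probes kept a positive difference under each of 15 distinct alternatives (180 of 180 values), with 155 values on the same side of the threshold, 18 newly past it and 7, all of Tek, no longer past it. The median over the genes stayed between 0.48 and 0.85. Against 1 gene (1 probe) called and 838 probes in all, the counts were 0 (0) and 14 without the date block, 0 (0) and 2 with the replicate block, 0 (0) and 0 without a filter on dim probes (8485 at an unadjusted p under 0.05, limma), 1 (1) and 358 after normexp, 2 (2) and 1423 after normexp with high local backgrounds replaced, 2 (3) with the authors' values, and 5 (6) and 6805 with the first date alone. Array weights gave 9 (10) and 12199, but their estimation did not converge and put a weight of 67.4 on WT 1. Leaving out 1 array gave 0 to 5 genes, 0 to 6 probes and 0 to 6805 probes in all. The member calls were 0 without WT 1, without WT 2 or without dt27J 1 (4, 5 and 4 genes at an unadjusted p under 0.05, limma). Without WT 3 or dt27J 3 the other second-date array is absorbed by the date term, which gives the fit of the first date alone, counted once here. The deviations of same-numbered arrays from their genotype mean correlated at 0.22, -0.15 and 0.062, and those of WT 1 and dt27J 2 at 0.23. These deviations come from 3 arrays a genotype and still hold the date difference, so they cannot tell whether the samples were paired. Signs turned for Vegfa (-0.060 after normexp, -0.19 with array weights, -0.32 with the first date alone, -0.32 to 0.28 leaving out an array), Vegfd (-0.0039 after normexp with backgrounds replaced, -0.00061 with the authors' values, -0.0089 to 0.081 leaving out an array) and Tagln (0.34 with array weights, 0.72 with the first date alone, -0.69 to 0.72 leaving out an array). The cause of these changes was not tested.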

Other observations

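Genes that respond to low oxygen, among them targets shared with the VEGF system, had 7 positive and 5 negative differences among 12 tested, a median of 0.029 and 0 calls (3 at an unadjusted p under 0.05, limma). Ndrg1 stood at 0.73 (SE 0.20, adjusted p = 0.0768), P4ha1, which modifies collagen, at 0.71 (SE 0.22, adjusted p = 0.0999), and Adm, the vasoactive peptide adrenomedullin, at 0.54 (SE 0.19, adjusted p = 0.128). The list medians were 0.12 and -0.041 within the 2 dates.

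Lymphatic markers had 2 positive and 2 negative differences among 4 tested of 5 measured, a median of 0.040 and 0 calls (0 at an unadjusted p under 0.05, limma). Lyve1, the hyaluronan receptor of lymphatic endothelium and some macrophages, stood at -0.38 (SE 0.20, adjusted p = 0.268).

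Several listed genes had, on their brightest probe, a genotype difference that differed between dates beyond the adjusted threshold, beside 0.831% of all tested probes. Among them, named after their values were seen, were Gata2 (3.72 in the first date and -2.50 in the second) and Acvrl1 (0.76 and -2.15). Others were Ccl21a (2.48 and -1.14), Slco1c1 (-1.10 and 1.98) and spinal cord genes such as Aqp4 (-5.56 and -0.090). The smooth muscle gene Tagln likewise had such a difference on its brighter probe. It was 0.72 in the first date and -2.23 in the second (interaction -2.95, SE 0.40, adjusted p = 0.0472, limma). Its dimmer probe stood at 1.13 over all arrays, with 1.29 in the first date and 0.82 in the second, so its sign did not turn.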
